A study of Arabidopsis thaliana with 18 samples.

Results

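Seeds of the Arabidopsis thaliana accession C24 were compared between 8-9 and 10-11 days after flower opening, with 3 arrays per stage, so the comparison rests on 6 of the 18 arrays of the study. The arrays were chosen by accession and stage in the sample titles, and each difference is the later stage minus the earlier stage. The study profiled developing seeds of the accessions Col-0 and C24 at 8-9, 10-11 and 12-13 days (d), in 6 groups of 3 arrays. The plants were of the named accession, with no treatment given in the labels, and grew in 2 experiments under days with 16 h of light. Each array holds RNA from 200 mg of seeds dissected from 48 pooled siliques (seed pods), 8 from each of 6 plants, and every pool draws on both experiments. Pools of a group may share plants, so p-values here measure the spread between pools only. The source name field carries the other accession in every sample, and the titles, which match the genotype field, were followed. Whole seeds were measured, so RNA of the embryo, the endosperm and the seed coat is mixed, and fewer cells of a type cannot be told apart from less RNA per cell.

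An Arabidopsis seed holds an embryo, a nourishing endosperm and a maternal seed coat. In the middle of its development the embryo stops dividing and fills with storage proteins and oil, and later it gains desiccation tolerance with late embryogenesis abundant (LEA) proteins and loses its chlorophyll. In the same period the seed coat makes tannins from flavonoids, deposits mucilage, and strengthens its walls with phenolics and with lipid polymers such as suberin and cutin. Those walls are built and modified by peroxidases, GDSL lipases, lipid transfer proteins, dirigent proteins and pectin methylesterases.

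The arrays carry 22746 probe sets once 64 control probe sets were left out, and each probe set reads 1 transcript or a few similar ones through several short probes. Values are log2 signals, on which a difference of 1 is 2-fold. Pearson correlations between arrays lay between 0.994 and 0.996 within a C24 stage and between 0.939 and 0.952 across the 2 stages. Of the listed markers of other tissue, the silique wall genes ALC and ADPG1 and the leaf gene RCA were measured. ALC read 6.65, 5.65 and 6.17 at 8-9 d and 6.12, 6.02 and 6.09 at 10-11 d, with a difference of -0.08 (adjusted p = 0.73, limma). ADPG1 read 6.15, 5.26 and 5.26 and then 6.11, 5.96 and 5.77, a difference of 0.39 (SE 0.23) with an adjusted p of 0.181, and RCA, which green seeds also use, fell by 1.11 from 11.63, 10.85 and 11.25 to 10.22, 10.31 and 9.86. Their part in the results was not tested. The embryo markers PAP85, AT1G03890 and AT5G16460 and the seed coat markers BAN, DFR, ARA12 and AT3G50990 are given below, and of the endosperm markers AGL62 read 3.33, 3.18 and 3.48 and then 3.32, 3.19 and 3.34, and IKU2 read 4.32, 4.19 and 4.46 and then 4.38, 4.39 and 4.34. AGL62 thus lay near the 5th percentile of C24 signals, 3.374, and IKU2 near the 25th, 4.325, where a fall has little room to show. The third measured endosperm marker, the desaturase gene AT5G16230, read 8.76, 8.94 and 8.75 and then 9.90, 10.08 and 10.20, a rise of 1.24 (SE 0.09) with an adjusted p of 2.92e-10.

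A large share of the array changed between the stages of C24. In the limma fit 10058 of 22746 probe sets (44.2%) passed an adjusted p under 0.05, with 4707 (20.7%) higher and 5351 (23.5%) lower at 10-11 d. The split depends on the scaling. With arrays scaled to 12 reference probe sets it was 6508 higher and 4437 lower, and with arrays centred on their medians 6018 higher and 4690 lower. Of the 12 reference probe sets 1 was itself called higher and 3 lower in this step, with a median of -0.17. The values of the 2 groups did not overlap for 11962 probe sets (52.6%). At least 2-fold differences were found for 906 probe sets that rose and 987 that fell, and among the larger changes more rose than fell. At least 4-fold differences were found for 266 probe sets that rose and 190 that fell, at least 16-fold ones for 63 and 9, and at least 64-fold ones for 16 and 0. The 63 strong risers had a median signal of 4.82 at 8-9 d and 10.35 at 10-11 d, and the array medians lay between 5.87 and 5.96. So the median of these genes began below the array medians. An effect of signal compression on their changes was not tested.

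The 15 named genes with the largest rises included several for wall proteins and wall enzymes. AT4G38080, which encodes a hydroxyproline-rich protein, read 4.01, 4.64 and 4.01 at 8-9 d and 12.85, 12.99 and 12.71 at 10-11 d, a rise of 8.63 (SE 0.14) with an adjusted p of 1.59e-20. The 3 later arrays lay far above the 3 earlier ones. Other members of this protein class were AT2G22510, which went from 3.42, 3.48 and 3.61 to 10.89, 10.59 and 10.43 (a rise of 7.14 (SE 0.15)), and AT5G09480, which went from 6.71, 7.20 and 6.80 to 13.04, 13.05 and 12.96 (a rise of 6.11 (SE 0.23)). The class III peroxidase AT1G68850, of the family that oxidizes phenolics in walls, read 3.82, 4.02 and 4.26 and then 11.44, 11.55 and 11.48, a rise of 7.46 (SE 0.12) with an adjusted p of 1.59e-20. The pectin methylesterase AT3G60730, of the family that removes methyl groups from pectin, read 4.54, 5.03 and 4.20 and then 11.93, 12.06 and 11.84, a rise of 7.35 (SE 0.18) with an adjusted p of 3.72e-18. The naming rule took only genes whose stages did not overlap, so their separation is set by the choice. The dirigent protein gene AT2G21100, of a family that guides the coupling of phenolics, read 3.67, 3.51 and 3.58 and then 9.66, 9.85 and 9.72, a rise of 6.16 (SE 0.11). AT1G19900, related to glyoxal oxidases, read 6.03, 6.91 and 5.76 and then 13.20, 13.30 and 13.08, a rise of 6.96 (SE 0.19).

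Other strong risers belonged to lipid-related families. The GDSL lipase family, whose members build or break ester bonds of cutin, suberin and other lipids, gave 3 of the 15. AT1G74460 read 4.37, 4.42 and 4.45 and then 10.75, 10.91 and 10.59, a rise of 6.34 (SE 0.11) with an adjusted p of 1.59e-20. AT2G23540 read 5.97, 5.85 and 5.64 and then 12.08, 12.09 and 11.92, a rise of 6.21 (SE 0.13), and AT5G37690 read 4.47, 4.68 and 4.93 and then 9.85, 10.32 and 10.06, a rise of 5.38 (SE 0.19). AT1G74460 and AT5G37690 began in the lower part of the signal range, and AT2G23540 near the C24 median of 5.89. All 3 ended in the upper part. The lipid transfer protein-like gene AT2G48130 read 6.45, 6.42 and 5.78 and then 11.64, 11.77 and 11.64, a rise of 5.46 (SE 0.14). FACT, which joins caffeic acid to fatty alcohols of suberin-associated waxes, was the single measured member of the 20 genes listed for suberin and cutin. It read 5.09, 5.10 and 5.29 at 8-9 d and 6.78, 8.50 and 9.00 at 10-11 d, a rise of 2.93 (SE 0.37) with an adjusted p of 1.24e-06. Its first 10-11 d array lay well below the other two, and still above every 8-9 d array. The remaining strong risers were the germin-like gene AT3G04170 with 6.50 (SE 0.17), AT2G47200 with 5.97 (SE 0.22), the Ole e 1 family gene AT4G17215 with 5.94 (SE 0.11) and AT5G45690 with 5.43 (SE 0.26).

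**Figure D1:**
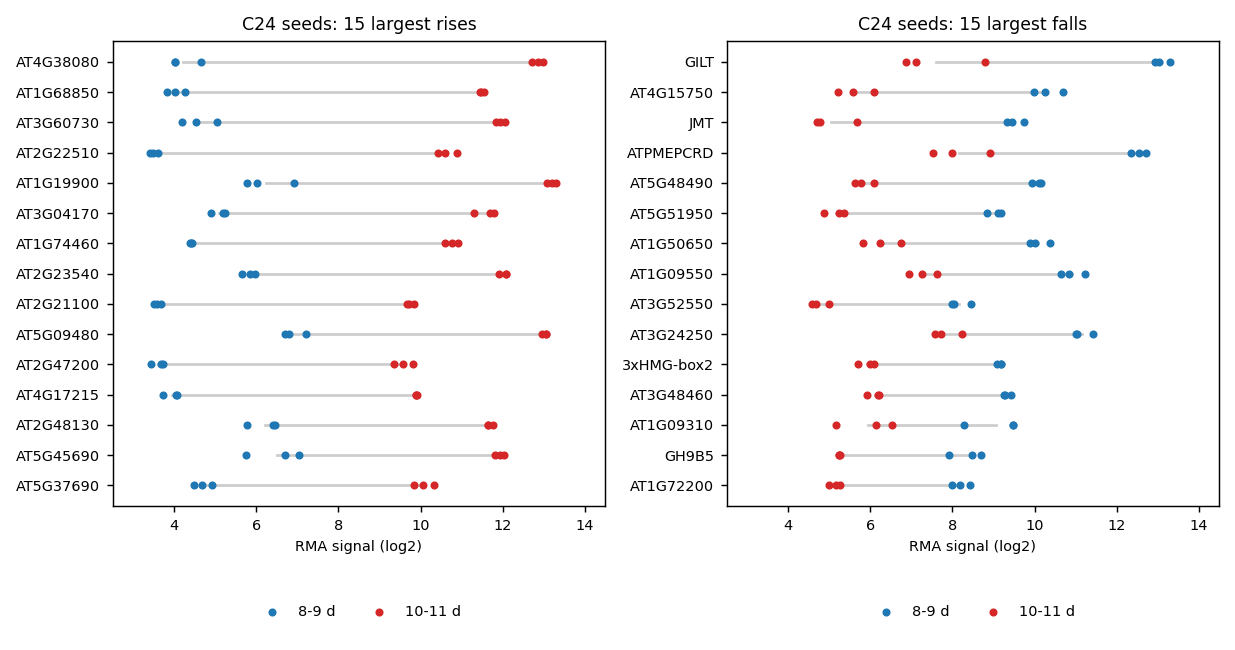
Log2 RMA signal (x axis) of the 15 named genes that rose most and the 15 that fell most in C24 seeds. Each dot is 1 array, blue for 8-9 d and red for 10-11 d, and the grey line joins the group means. The stages are separate in all 30 genes because the rule required it, and AT4G38080 moves from about 4.22 to 12.85 on average.

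The falling genes were led by GILT, a thiol reductase family gene that read 12.94, 13.03 and 13.31 at 8-9 d and 8.80, 6.86 and 7.10 at 10-11 d, a fall of 5.50 (SE 0.36) with an adjusted p of 5.1e-11. Its first 10-11 d array was higher than the other two. Several other fallers act on pectin. The pectin methylesterase ATPMEPCRD went from 12.35, 12.54 and 12.71 to 8.92, 7.53 and 7.99 and fell by 4.39 (SE 0.24). AT4G15750 belongs to a family whose proteins inhibit such methylesterases. It went from 9.98, 10.24 and 10.69 to 6.09, 5.21 and 5.58 and fell by 4.68 (SE 0.21), with an adjusted p of 2.1e-13. The pectin acetylesterase AT1G09550 fell by 3.62 (SE 0.16), and GH9B5, of the endoglucanase family that acts on cellulose, fell by 3.11 (SE 0.16). So pectin methylesterase genes stood among both the largest rises and the largest falls. JMT, which methylates jasmonic acid, went from 9.45, 9.33 and 9.74 to 5.68, 4.71 and 4.77 and fell by 4.46 (SE 0.20). The lipid transfer protein-like AT5G48490 fell by 4.23 (SE 0.21), from 10.11, 10.15 and 9.94 to 6.09, 5.77 and 5.64. The chromatin gene 3xHMG-box2, whose protein binds mitotic chromosomes, fell by 3.22 (SE 0.19).

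Among the other strong fallers, the oxidoreductase family gene AT5G51950 fell by 3.89 (SE 0.17) and the STIG1 family gene AT1G50650 by 3.83 (SE 0.22). AT3G52550 fell by 3.42 (SE 0.15), the glycine-rich protein gene AT3G24250 by 3.31 (SE 0.27), the GDSL lipase AT3G48460 by 3.22 (SE 0.12), AT1G09310 by 3.13 (SE 0.30) and the RING finger gene AT1G72200 by 3.06 (SE 0.15). The arrays within a stage differed in a repeated way across these genes. In the first 10-11 d array the signal was the highest of its group for 13 of the 15, and in the third 8-9 d array for 13 of the 15. Over all probe sets that fell at least 2-fold, 41.0% were highest in that 10-11 d array and 43.1% in that 8-9 d array. Of the 906 that rose at least 2-fold, 61.3% were lowest in the third 8-9 d array. The signal in the second 10-11 d array was the highest of its group for 12 of the 15 largest rises. Over all 906 that rose at least 2-fold this share was 47.4%. In the same array the signal was the lowest of its group for 12 of the 15 largest falls, and for 38.5% of all that fell at least 2-fold. Without the third 8-9 d array 4410 probe sets rose and 5065 fell, and without the first 10-11 d array 4499 rose and 4964 fell. Counts dropped further without the second 10-11 d array, to 4042 and 4913, and without the first 8-9 d array, to 4097 and 4763.

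Most measured storage protein genes rose. Of 7 measured storage protein genes, out of 15 listed, 5 rose, 1 fell and 1 was not called, with a median difference of 0.70. Over all probe sets 20.7% rose, 23.5% fell and the median was 0.03, and the counts of the lists below are read against the same shares. The cruciferin family gene AT1G03890, a globulin, read 11.39, 11.42 and 10.66 at 8-9 d and 13.65, 13.54 and 13.59 at 10-11 d, a rise of 2.44 (SE 0.33) with an adjusted p of 3.56e-06. The vicilin family gene PAP85 read 12.15, 12.04 and 11.71 and then 13.43, 13.30 and 13.36, a rise of 1.40 (SE 0.12). Both were tight at 10-11 d and lowest in the third 8-9 d array. The vicilin-like AT2G28490 rose by 0.90 (SE 0.12), and the cupin genes AT2G18540 and AT4G36700 rose by 0.70 (SE 0.13) and 0.52 (SE 0.10). The cupin gene AT1G07750 fell by 0.71 (SE 0.10), and AT2G28680 had a difference of -0.04 (SE 0.10) with an adjusted p of 0.781.

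Of the 5 measured genes on the list of vacuolar processing and protein deposition, 4 rose, 1 was not called and the median was 0.90. BETA-VPE, the seed protease that cleaves storage globulins, read 10.88, 10.67 and 10.32 and then 12.01, 11.91 and 12.01, a rise of 1.35 (SE 0.12) with an adjusted p of 3.72e-09. The largest rise on the list belonged to AT1G04560, an AWPM-19-like membrane protein gene and no processing enzyme, which read 10.92, 11.00 and 10.08 and then 13.35, 13.36 and 13.29, a rise of 2.67 (SE 0.22).

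For oil bodies, the droplets that store seed oil, 3 of 8 measured genes rose, 1 fell and 4 were not called, and the median was 0.16. Oleosins coat these droplets. The oleosin family genes AT2G25890 and AT3G18570 rose by 1.65 (SE 0.12) and 1.53 (SE 0.10), the first from 8.72, 8.79 and 8.38 to 10.47, 10.11 and 10.28. The oleosins OLEO3 and AT3G01570, at 13.10 or higher on all 6 arrays, had differences of 0.17 (SE 0.07) and 0.16 (SE 0.08) that were not called, with adjusted p-values of 0.0693 and 0.124. Scaled to the reference genes or centred on medians, both were called higher, and the list then had 5 risers. Both lay near the top of the scale, and whether signal compression there affects their differences was not tested. The seipin family gene AT5G16460, of a family that shapes oil droplets, rose by 1.30 (SE 0.14). AT3G05500, of the lipid droplet-associated protein family, fell by 0.33 (SE 0.08), and its relatives AT1G67360 and AT2G47780 had differences of 0.12 (SE 0.09) and -0.10 (SE 0.14) that were not called. Plastid fatty acid synthesis moved both ways, with 4 of 11 measured genes higher, 5 lower and a median of -0.02, or 0.06 when scaled to the reference genes. The acyl carrier protein desaturase genes AT5G16230 and AT5G16240 rose by 1.24 (SE 0.09) and 0.93 (SE 0.11), while AT4G16155, a plastid dihydrolipoyl dehydrogenase, and AT5G10160, a dehydratase of chain elongation, fell by 1.18 (SE 0.13) and 0.92 (SE 0.09). Without the third 8-9 d array 2 of these genes rose.

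LEA genes were mixed, with 16 of 35 measured members higher, 3 lower and 16 not called, and a median of 0.29. AT3G15670 read 6.29, 6.57 and 6.01 at 8-9 d and 10.31, 10.71 and 10.34 at 10-11 d, a rise of 4.16 (SE 0.21) with an adjusted p of 1.65e-12. AT3G02480 read 9.40, 9.52 and 8.44 and then 12.13, 12.41 and 12.54, a rise of 3.24 (SE 0.24). The fallers were the dehydrin COR47, which went from 7.48, 7.71 and 7.64 to 6.29, 6.42 and 6.10 and fell by 1.33 (SE 0.13), the dehydrin family gene AT4G38410 with a fall of 0.84 (SE 0.12), and AT2G44060 with a fall of 0.68, a gene named here because it completes that count. Dehydrins are hydrophilic LEA proteins that also respond to cold and drought in leaves.

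Of 27 listed regulators of maturation, 4 were measured and 3 of these rose. AGL67, a MADS box factor of late seed development, read 4.90, 4.88 and 4.09 and then 8.31, 8.04 and 8.28, a rise of 3.59 (SE 0.16) with an adjusted p of 1.8e-13. EEL, a bZIP factor that acts on LEA gene promoters, rose by 0.97 (SE 0.11), and AT4G18650, related to the dormancy gene DOG1, rose by 0.85 (SE 0.11). BZIP53, a bZIP factor that activates seed maturation genes, had a difference of 0.16 (SE 0.09) (adjusted p = 0.172), and it passed when arrays were scaled to the reference genes. Of 8 small heat shock protein genes 3 rose, led by AT2G19310 with 2.27 (SE 0.11), and none fell.

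Most measured photosynthesis genes fell. Of 11 measured nuclear photosynthesis genes 10 fell, none rose and the median was -0.83, against 23.5% lower over all probe sets. The antenna protein genes LHCB4.2 and LHCB4.1, which bind chlorophyll around photosystem II, fell by 1.52 (SE 0.13) and 1.38 (SE 0.10). LHCB4.1 read 12.06, 11.88 and 11.90 at 8-9 d and 10.52, 10.61 and 10.57 at 10-11 d, with an adjusted p of 5.89e-10. Both measured chlorophyll synthesis genes fell. PORB, which reduces protochlorophyllide, fell by 2.25 (SE 0.16), and CHLM, a magnesium-protoporphyrin methyltransferase, fell by 1.51 (SE 0.11).

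Of 69 probe sets for plastid-encoded genes 28 were lower, 5 higher and 36 not called, and the median was -0.45. Over all probe sets 23.5% were lower and 20.7% higher. Of 15 for ribosomal proteins 11 were lower, with a median of -0.83, and of 15 for photosystem II 2 were lower and 3 higher, with a median of -0.18. None of the 5 for photosystem I was called. The medians were -0.83 for 4 probe sets of the RNA polymerase, -0.79 for 6 of cytochrome b6f, -0.73 for 10 of the NADH dehydrogenase-like complex and -0.40 for 6 of ATP synthase. Differences between these groups were not tested. The 5 rises became 3 when single arrays were left out. The ribosomal protein genes rpl33 and rpl16 fell by 1.79 (SE 0.23) and 1.65 (SE 0.22), whereas rpl32 and the photosystem II gene psbM rose by 0.76 (SE 0.17) and 0.71 (SE 0.12). The median of this list on single arrays was 7.77, 8.19 and 8.36 at 8-9 d and 7.84, 7.76 and 7.96 at 10-11 d, so the arrays of the 2 stages overlapped. For mitochondrially encoded genes 11 of 23 probe sets were higher, none was lower and the median was 0.41. The respiratory complex I genes nad9 and nad4L rose by 0.95 (SE 0.13) and 0.89 (SE 0.12). Parts of the mitochondrial genome also have a near-identical copy in the nuclear genome, and the arrays cannot separate the copies.

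Most measured cell division genes fell. Of 9 measured genes of DNA replication and cell division 8 fell and 1 rose, with a median of -0.99, against 23.5% lower over all probe sets. The mitotic kinase gene AUR1 read 8.42, 8.22 and 8.48 at 8-9 d and 5.95, 5.48 and 6.03 at 10-11 d, a fall of 2.55 (SE 0.13) with an adjusted p of 1.38e-12. TOPII, the topoisomerase that untangles chromosomes, read 7.49, 7.79 and 7.98 and then 5.44, 5.45 and 5.66, a fall of 2.24 (SE 0.18). The riser was SIM, which inhibits the cell cycle, with 0.40 (SE 0.11). Of 45 measured genes for 40S ribosomal proteins 35 fell and 1 rose, with a median of -0.54. AT4G30800 fell by 1.35 (SE 0.12) and AT5G61170 by 1.12 (SE 0.10), and AT5G39850 rose by 0.55 (SE 0.11). With arrays scaled to the reference genes 33 were lower and 1 higher.

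All 3 measured genes of the flavonoid list fell. BAN, the reductase that makes tannin precursors, fell by 2.31 (SE 0.17), and DFR, which acts before it, fell by 1.88 (SE 0.10). UGT80B1, a sterol glucosyltransferase named because it completes the count, fell by 0.55. BAN read 10.92, 10.69 and 11.02 at 8-9 d and 8.62, 8.29 and 8.78 at 10-11 d, with an adjusted p of 5.93e-10. All 4 measured mucilage genes fell. ARA12, a subtilase needed for mucilage release, read 12.08, 12.27 and 12.44 and then 11.04, 10.91 and 10.88, a fall of 1.32 (SE 0.12). AT3G50990, the peroxidase PER36 that loosens the outer wall for mucilage release, fell by 1.07 (SE 0.16), AT2G22900, a galactosyltransferase of mucilage, by 0.82 (SE 0.11), and AT3G10320, a xylosyltransferase of mucilage, by 0.35 (SE 0.12) with an adjusted p of 0.0243. The fall of AT3G10320 was not called with arrays scaled to the reference genes.

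Of 6 measured genes of endosperm development 1 rose, IKU1, which sets seed size, by 0.34 (SE 0.09), and 5 were not called. The median signal of the 6 was 3.80 at 8-9 d and 3.72 at 10-11 d, under the 25th percentile of C24 signals, 4.325. At such low signals a fall has little room to show. Of 3 embryo patterning genes the homeodomain gene PHV fell by 0.93 (SE 0.12) and the other 2 were not called. Glucosinolate genes rose in 5 of 6 cases, with a median of 0.61. GTR2, which imports glucosinolates into the seed from maternal tissue, rose by 1.51 (SE 0.13), from 7.05, 7.28 and 6.87 to 8.69, 8.59 and 8.46, and AOP3, of side chain modification, rose by 0.84 (SE 0.09). Of 6 sugar and starch genes 3 rose and 3 fell. The vacuolar invertase AT1G62660 rose by 1.53 (SE 0.15) and SAG29, the sugar exporter also named SWEET15, by 0.73 (SE 0.09). APL4 and APL3, subunits of the enzyme that makes the starch precursor, fell by 1.89 (SE 0.13) and 1.46 (SE 0.09), the second from 5.80, 5.75 and 5.81 to 4.32, 4.33 and 4.34.

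**Figure D2:**
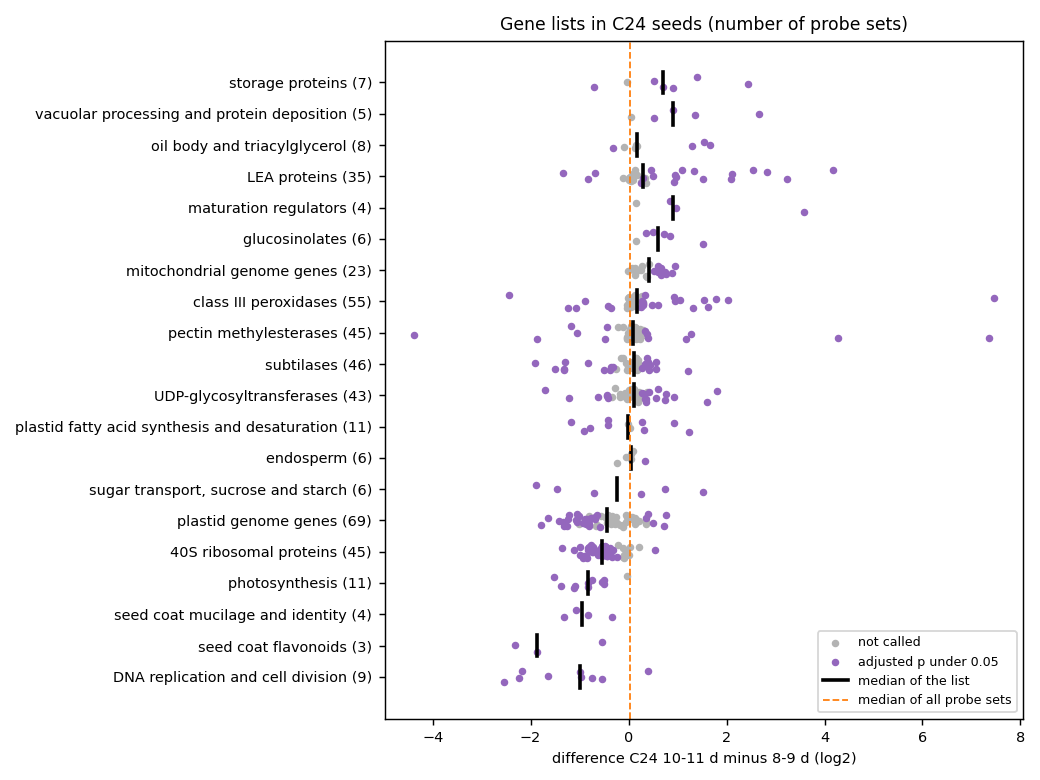
Log2 difference between 10-11 and 8-9 d in C24 (x axis) for each probe set of 20 gene lists, with the number of probe sets in brackets. Purple points have an adjusted p under 0.05, grey points do not, black bars are list medians and the dashed line is the median of all probe sets, 0.03. Photosynthesis, cell division and 40S ribosomal lists lie mainly below 0, storage and vacuolar processing lists mainly above.

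The larger families are read against the 20.7% higher and 23.5% lower over all probe sets. Of 55 class III peroxidase genes 18 rose and 6 fell, with a median of 0.17. With quantile normalization 14 rose and 7 fell, and scaled to the reference genes 25 rose and 6 fell. Besides AT1G68850, AT1G71695 rose by 2.02 (SE 0.14), from 11.10, 11.40 and 10.87 to 13.10, 13.18 and 13.14, and AT5G15180 and AT4G31760 fell by 2.45 (SE 0.15) and 1.24 (SE 0.10). Pectin methylesterases split into 7 higher and 6 lower of 45, with AT5G20860 higher by 4.27 (SE 0.11) and AT5G49180 lower by 1.88 (SE 0.10). Scaled to the reference genes, 13 rose and 6 fell. Of 4 type 1 lipid transfer proteins, which carry lipids in walls, AT2G18370 read 5.51, 5.56 and 5.18 and then 9.11, 10.50 and 10.62, a rise of 4.66 (SE 0.49), and AT5G01870 fell by 1.52 (SE 0.41). As for FACT, the first 10-11 d array was the lowest of its group for AT2G18370. Subtilases, proteases of walls and vacuoles, gave 10 higher and 10 lower of 46, or 16 and 10 when scaled to the reference genes, and their 10 and 10 are close to the shares over all probe sets. AT3G14067 and AT4G10510 rose by 1.22 (SE 0.09) and 0.57 (SE 0.14), and SBT5.4 and SBT1.3 fell by 1.92 (SE 0.14) and 1.51 (SE 0.18).

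Of 24 measured cytochrome P450 genes, out of 244 matched by name, 8 rose and 2 fell, or 1 fell when single arrays were left out. CYP78A9, which promotes seed growth, read 5.44, 5.48 and 5.61 and then 8.68, 8.96 and 9.05, a rise of 3.38 (SE 0.14), and CYP71B37 rose by 2.29 (SE 0.18). CYP71B28 fell by 0.63 (SE 0.12), and the fall of CYP71B29 by 0.33 (SE 0.13) was lost in several alternative fits. Sugar-transferring UDP-glycosyltransferases gave 13 higher and 6 lower of 43, with UGT71B1 and UGT85A7 up by 1.81 (SE 0.12) and 1.60 (SE 0.11) and UGT88A1 and UGT84B1 down by 1.71 and 1.21. Of 12 glutathione transferases GSTU26 rose by 1.38 (SE 0.10) and 4 fell, GSTU18 by 0.78 (SE 0.12) and GSTU27 by 0.47 (SE 0.13) among them. Wall-loosening expansins gave 4 higher and 2 lower of 19, a share of rises close to the 20.7% over all probe sets. Among them EXPA15 rose by 1.74 (SE 0.14) and EXPA7 by 0.59 (SE 0.11), and EXLA1 and EXLB1 fell by 1.45 and 1.09. Of 10 xyloglucan transferases 3 rose and 1 fell, XTH32 and XTH18 with 1.72 (SE 0.12) and 0.29 (SE 0.08) and XTH16 with a fall of 0.50 (SE 0.17). The fall of XTH16 was not called when any of 4 single arrays was left out. XTH18 read 3.11, 3.23 and 3.16 and then 3.36, 3.57 and 3.43, near the 5th percentile of C24 signals, 3.374.

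Of 13 defensin-like genes, whose small cysteine-rich peptides act on fungi, 3 rose and 1 fell. Over all probe sets 20.7% rose and 23.5% fell, so their share of rises was near that background. PDF2.1 read 10.04, 10.23 and 10.00 and then 12.40, 12.43 and 12.30, a rise of 2.29 (SE 0.08), LCR68 rose by 1.24 (SE 0.13) and LCR69 fell by 0.45 (SE 0.09). Of 22 bZIP factor genes 6 rose, EEL and BZIP24 with 0.97 (SE 0.13) leading, and 2 fell, BZIP61 by 0.61 (SE 0.10) and bZIP44 by 0.48 (SE 0.08). Of 44 probe sets for MADS box genes, matched by name or synonym, 11 were higher and 2 lower, a share of rises not far above the 20.7%. AGL67 and AT1G30260, which carries the synonym AGL79, led the rises, the latter with 1.71 (SE 0.14), and AGL26 and AGL87 fell by 0.83 (SE 0.11) and 0.66 (SE 0.15). A second probe set of AGL26 had a difference of 0.01 and was not called. Scaled to the reference genes 19 MADS box probe sets were higher and 2 lower, and without the second 10-11 d array 6 were higher.

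The next step of C24 development, from 10-11 to 12-13 d, shares the 10-11 d arrays, so the difference between the steps was tested directly. In that test 5219 of 22746 probe sets (22.9%) passed, 2515 (11.1%) positive and 2704 (11.9%) negative, a positive value meaning a change that was more upward in the first step. All 15 strongest risers and all 15 strongest fallers passed, a count that their choice by the first step helps to set. In the second step alone 5022 probe sets (22.1%) passed, 2222 (9.77%) higher and 2800 (12.3%) lower. AT4G38080, after its rise of 8.63, changed by -0.36 (SE 0.14) in the second step, at 12.54, 12.44 and 12.48, and the difference between the steps was 8.99 (SE 0.24) with an adjusted p of 1.64e-16. The corresponding second-step values were 0.47 (SE 0.12) for AT1G68850, 0.76 (SE 0.18) for AT3G60730 and -0.62 (SE 0.11) for AT1G74460, each far below the first step. AT1G21540, of the acyl-activating enzyme family, peaked at 10-11 d. It read 4.51, 4.77 and 4.54, then 9.56, 9.39 and 9.38, then 7.39, 7.31 and 7.34, so a rise of 4.83 (SE 0.10) was followed by a fall of 2.09 (SE 0.10), and the steps differed by 6.93 (SE 0.18) (adjusted p = 1.64e-16).

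Second-step values varied among other genes. AT3G21380, a jacalin-like lectin gene, rose by 1.08 (SE 0.11) and then by 4.41 (SE 0.11), so most of its rise came later, and the steps differed with an adjusted p of 6.98e-11. FACT rose by 2.93 (SE 0.37) and then by 4.35 (SE 0.37), to 12.53, 12.54 and 12.26, a difference between the steps that did not pass (adjusted p = 0.128). Among the falling genes, AT4G15750 fell by 4.68 and then read 5.76, 5.41 and 5.26, a change of -0.15 (SE 0.21) (difference between the steps -4.53 (SE 0.37), adjusted p = 1.41e-08). AT1G50650, JMT, AT5G48490 and AT3G24250 had step differences of -3.58 (SE 0.37), -3.46 (SE 0.35), -3.45 (SE 0.36) and -3.27 (SE 0.47), and second-step differences of -0.24 (SE 0.22), -0.99 (SE 0.20), -0.78 (SE 0.21) and -0.04 (SE 0.27). GILT continued to fall, by 3.17 to 4.27, 4.46 and 4.52. Of 10 plastid probe sets for the NADH dehydrogenase-like complex 5 fell in the first step and 7 rose in the second. Their median on single arrays was 6.95, 7.71 and 7.72 at 8-9 d, 5.46, 6.03 and 6.91 at 10-11 d and 7.54, 7.71 and 7.70 at 12-13 d. ndhE read 7.02, 7.49 and 7.17, then 5.01, 5.92 and 6.48, then 7.48, 7.72 and 7.90, a fall of 1.42 and a rise of 1.90 (SE 0.32), with an adjusted p of 0.000135 for the difference. ndhG fell by 1.23 (SE 0.44) with overlapping groups, from 6.88, 7.93 and 8.36 to 5.61, 6.14 and 7.74, and then rose by 2.22 (SE 0.44), and its fall was not called when only the 6 arrays were fitted.

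Of the 9 cell division genes, 8 passed for the difference between the steps, all negative, and 2 fell in the second step, whose median was -0.12 against -0.99 before. Of the 45 genes for 40S ribosomal proteins 22 passed, all negative, with a second-step median of -0.07. Photosynthesis genes kept falling, with medians of -0.83 and then -0.96, 11 of 11 lower in the second step and 4 passing for the difference. LEA genes had medians of 0.29 and then 0.32, with 15 higher in the second step. Storage protein genes had a second-step median of 0.05, none higher, 1 lower and 3 that passed for the difference. AT1G03890 read 13.65, 13.54 and 13.59 at 10-11 d and 13.63, 13.57 and 13.62 at 12-13 d, a change of 0.01 (SE 0.33) near the top of the scale.

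**Figure D3:**
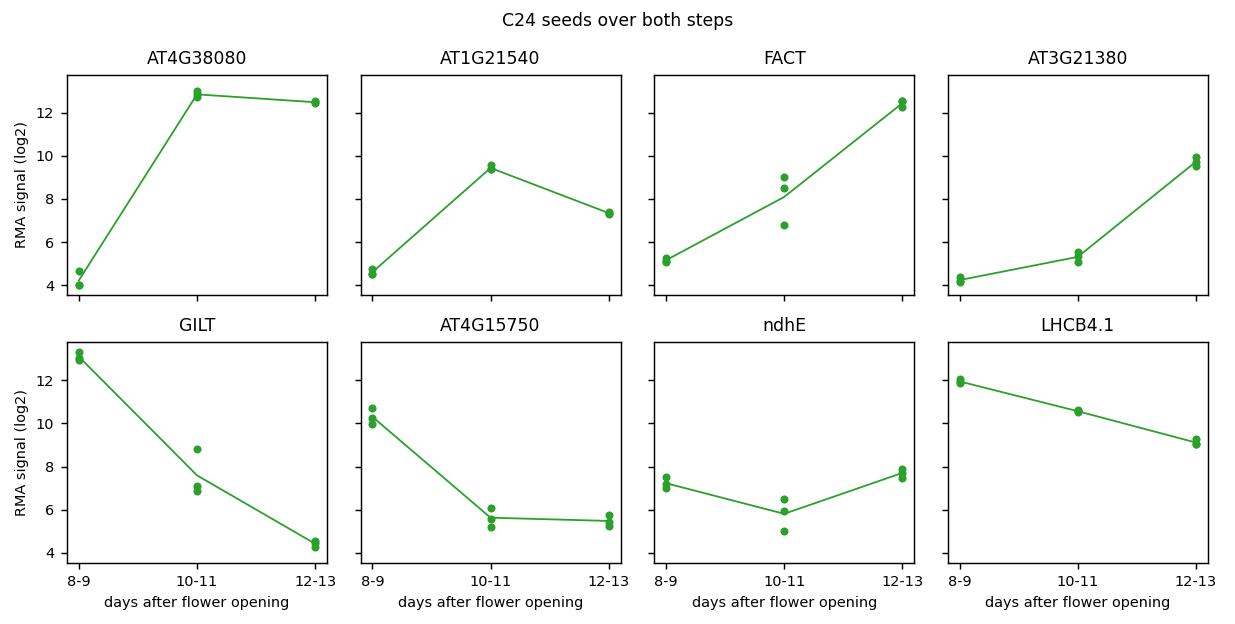
Log2 RMA signal (y axis) in C24 seeds against days after flower opening (x axis) for 8 genes. Dots are single arrays, 3 per stage, and lines join the stage means. AT4G38080 rises by 8.63 and then changes by -0.36, AT1G21540 peaks at 10-11 d, FACT and AT3G21380 reach 12.44 and 9.73 at 12-13 d, AT4G15750 falls once, GILT and LHCB4.1 fall in both steps, and ndhE falls and returns.

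The same step in Col-0 shares no array with C24. There 8403 probe sets (36.9%) passed, 3828 (16.8%) higher and 4575 (20.1%) lower. Of the probe sets called in C24, 64.3% were called in the same direction in Col-0, which is 76.9% of those called in Col-0, and 101 were called in opposite directions. Across probe sets, which are not independent and share the probe design, Pearson's r between the steps was 0.877 and Spearman's rho 0.757. The difference between the accessions in this step was called for 1488 probe sets (6.54%), 708 (3.11%) positive, meaning more upward in C24, and 780 (3.43%) negative. Scaled to the reference genes the split was 531 positive and 1027 negative, and centred on medians 880 and 631. AT4G38080 rose by 8.49 (SE 0.14) in Col-0, and the difference of 0.13 (SE 0.19) did not pass (adjusted p = 0.757).

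Positive differences arose in several forms. Some genes rose in both accessions, and more in C24. AT1G14930, of the major latex protein family, read 3.67, 3.69 and 3.63 and then 7.42, 7.98 and 7.97 in C24, against 3.87, 4.13 and 4.09 and then 5.83, 5.57 and 6.07 in Col-0. Its rises of 4.13 and 1.79 differed by 2.33 (SE 0.20) with an adjusted p of 1.55e-07. The sugar transporter family gene AT2G18480 rose by 3.45 (SE 0.16) in C24 and 1.33 (SE 0.16) in Col-0. Others fell in Col-0 and already gave low signals in C24 at 8-9 d. The pectin methylesterase family gene AT1G11590 read 3.65, 3.44 and 3.60 and 3.50, 3.67 and 3.76 in C24, and 6.92, 6.64 and 6.36 and 3.63, 3.55 and 3.56 in Col-0. Its difference of 3.14 (SE 0.18) (adjusted p = 9.75e-10) thus came with a change of 0.08 in C24. The C24 mean at 12-13 d was 3.67, so the signal stayed low at every C24 stage. Whether sequence differences between the accessions under the probes affect such signals was not tested. AT2G15325, of the lipid transfer protein family, AT2G43660, of a carbohydrate-binding family, and AT3G23450 had differences of 3.01 (SE 0.49), 2.60 (SE 0.18) and 2.52 (SE 0.27), with Col-0 falling by 3.50, 2.82 and 3.09. Another pair moved in opposite directions. AT1G75280, related to isoflavone reductases, rose by 1.50 (SE 0.16) in C24 and fell by 1.24 (SE 0.16) in Col-0, and the cysteine protease AT3G43960 rose by 0.56 (SE 0.13) and fell by 1.99 (SE 0.13).

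Negative differences also had more than 1 form. AT1G62210 was already high in C24, at 12.11, 12.32 and 11.92 and then 12.69, 12.76 and 12.88, while Col-0 went from 8.55, 6.30 and 8.78 to 12.76, 12.79 and 12.85. The difference of -4.27 (SE 0.51) passed with an adjusted p of 1.28e-05, and the Col-0 arrays at 8-9 d spread widely. CYP78A9 rose by 3.38 in C24 and 6.05 in Col-0, where it read 4.54, 4.84 and 4.59 and then 10.77, 10.27 and 11.07, a difference of -2.67 (SE 0.20) with an adjusted p of 3.97e-08. MSRB6, a methionine sulfoxide reductase that repairs oxidized proteins, rose by 2.20 (SE 0.19) in C24 and 4.60 (SE 0.19) in Col-0. The exostosin family gene AT5G41250 fell in C24 from 9.80, 10.12 and 10.30 to 7.15, 6.99 and 7.08, and in Col-0 it read 5.10, 4.37 and 4.35 and 4.21, 5.09 and 4.52, a difference of -3.00 (SE 0.28). AT2G19320, AT4G14980, the LEA gene AT2G23110 and AT5G54020 rose by 3.37, 2.73, 2.72 and 2.23 in Col-0, against differences of 0.78, 0.32, 0.36 and 0.03 in C24. The C24 adjusted p-values of the 4 were 0.000916, 0.0497, 0.109 and 0.871, and the call of AT4G14980 was lost in several alternative fits. AT4G14980 and AT5G54020 stayed low in C24, with means of 4.08 and 4.09 at 12-13 d. An effect of sequence differences under the probes was not tested for them either.

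**Figure D4:**
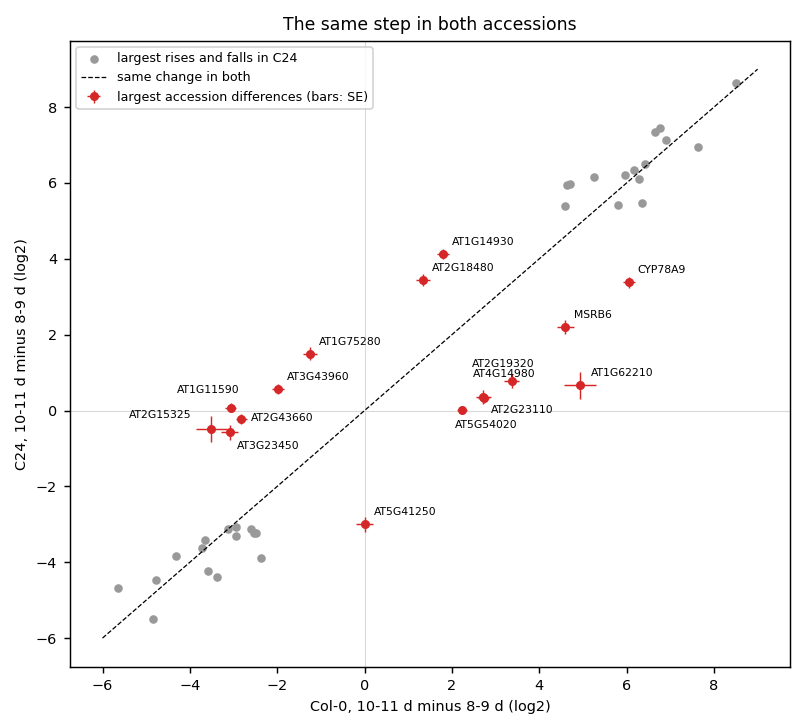
Log2 difference between 10-11 and 8-9 d in C24 (y axis) against the same difference in Col-0 (x axis). Grey points are the 30 genes with the largest rises and falls in C24, red points the 16 genes with the largest called accession differences, bars are standard errors and the dashed line marks equal changes. The accession difference was called for 5 of the 15 risers and 2 of the 15 fallers. AT4G38080 lies at 8.63 in C24 and 8.49 in Col-0, and AT1G62210 at 0.66 and 4.93.

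The probe sets for the 3-prime and 5-prime ends of control transcripts give a view of RNA quality and labelling. For actin the 3-prime minus 5-prime difference in log2 signal was 1.26, 0.92 and 0.36 at 8-9 d and 0.39, 0.78 and 0.10 at 10-11 d, a change of -0.42 (exact two-sided permutation p = 0.3). For GAPDH it was 1.09, 1.09 and 0.64, and then 1.33, 1.68 and 1.30, a change of 0.50 without overlap (exact permutation p = 0.1, the smallest that 3 against 3 arrays allow). For ubiquitin the change was -0.02 (exact permutation p = 0.8). The 3 controls thus did not move together, and their part in the gene results was not tested.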

How the data were processed

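RNA of whole seeds was measured on Affymetrix ATH1 arrays. The deposited values are log2 signals made by the authors with robust multi-array averaging (RMA), per the submitters' processing notes. No version of it is given in the sources used here. The method forces the arrays to a common distribution, so a change in total RNA would not be seen, and it compresses differences near both ends of the scale. Of 22810 probe sets 64 controls were left out. The platform annotation listed 14016 of the rest, 13513 (59.4% of those tested) with 1 gene and 503 with several, and 8730 are unnamed here. Symbols were updated through the RefSeq gene table of assembly TAIR10.1, which was used for names only.

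All 18 arrays entered 1 limma fit (version 3.58.1, R 4.3.3) with a mean for each of the 6 groups, leaving 12 residual and 8.331 prior degrees of freedom. P-values were Benjamini-Hochberg adjusted over 22746 probe sets. The threshold for a call was 0.05. Differences are given with standard errors (SE), and each group has 3 arrays, whose number limits the precision. The fit was tested on simulated data.

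Genes were named by rule among probe sets with 1 gene. The rule took the 15 largest called rises and falls whose groups did not overlap, the 8 most positive and most negative called differences between steps and between accessions, and the 2 highest and 2 lowest called members of each gene list. If a list had no called member, the one with the smallest p was taken. Any measured member of the lists of maturation regulators, storage proteins, oil bodies, suberin and mucilage could be named, and a few other genes named to complete a count are marked as such. Members and lists were chosen with earlier results of these data known, and the lists of 40S proteins, peroxidases, pectin methylesterases, lipid transfer proteins and subtilases were added once the annotation had been seen. Families were matched by name, and 7 with under 10 measured members are not described. Many lists were measured only in small part. Measured were 9 of 68 cell division, 11 of 66 photosynthesis, 3 of 26 flavonoid, 4 of 24 mucilage and 13 of 117 defensin-like genes. Alternatives were other thresholds, arrays, scalings, signal filters and prior settings, a replicate block and leaving out each array.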

Additional observations from a re-analysis of the deposited data

Results flagged for a closer look

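Among the 153 genes selected by the naming rule, 47 had a log2 change from 8-9 to 10-11 d that differed between C24 and Col-0 in the limma test of that difference. Over all 22746 probe sets this difference was called for 1488 (6.54%). The rule itself picked 16 of the 153 by this difference and many others by called changes in C24. The 47 of 153 is therefore no estimate of the share among other genes. Values are the change in C24 minus that in Col-0.

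Positive values, for genes that rose more or fell less in C24 or moved up there and down in Col-0, were found for AT1G11590 (3.14), AT2G15325 (3.01), AT1G75280 (2.75), AT2G43660 (2.60), AT3G43960 (2.55), AT3G23450 (2.52), AT1G14930 (2.33), AT2G18480 (2.12), AT3G50990 (1.82), FACT (1.79), AT2G19310 (1.79), GSTU26 (1.45), UGT85A7 (1.41), AT4G17215 (1.30), AT2G47200 (1.25), AT3G21380 (0.93), AT2G21100 (0.91), PDF2.1 (0.83), AT1G68850 (0.69), BZIP24 (0.64), AT4G38070 (0.62), AT3G14067 (0.62) and AT5G16230 (0.48).

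Negative values were found for AT1G62210 (-4.27), AT5G41250 (-3.00), CYP78A9 (-2.67), AT2G19320 (-2.59), AT4G14980 (-2.41), MSRB6 (-2.40), AT2G23110 (-2.36), AT5G54020 (-2.21), XTH16 (-1.94), AT1G03890 (-1.63), AT5G51950 (-1.51), AT3G02480 (-1.30), COR47 (-1.20), AT1G71695 (-1.01), APL4 (-0.98), AT2G48130 (-0.89), AT4G18650 (-0.89), AT4G31760 (-0.85), AT3G48460 (-0.69), PHV (-0.69), APL3 (-0.64), CHLM (-0.55), AT2G22900 (-0.55) and bZIP44 (-0.43). AT1G03890, FACT, BZIP24 and CHLM had adjusted p-values of 0.0423, 0.0447, 0.0473 and 0.0428, close to the threshold of 0.05. AT3G50990, of mucilage release, fell by 2.89 in Col-0 and by 1.07 in C24, and the heat shock gene AT2G19310 had differences of 2.27 in C24 and 0.48 in Col-0. AT4G38070 is one of the reference genes used for scaling, with differences of 0.41 in C24 and -0.21 in Col-0.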

How the results depend on the processing

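The count of 10058 probe sets called between 8-9 and 10-11 d in C24 ranged from 7758 at an adjusted p under 0.01 to 10945 with arrays scaled to the reference genes. It was 9990 with only the 9 C24 arrays, 9605 with only the 6 arrays compared, 9840 after quantile normalization and 8594 among probe sets with a mean signal of at least 5. At an adjusted p under 0.01 the difference between the steps was called for 3316 probe sets (1610 positive, 1706 negative) and that between the accessions for 718 (354 positive, 364 negative). The fit of 6 arrays could not give these comparisons, which need the other groups.

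When single arrays were left out, the C24 count lay between 8860 and 9475 (4042 to 4499 higher, 4763 to 5065 lower). The difference between steps lay between 3905 and 5004 (1806 to 2426 positive, 2099 to 2622 negative), and that between accessions between 1050 and 1582 (530 to 677 positive, 520 to 905 negative). Called members of the gene lists lay between 270 and 288, against 297 of 609 probe sets with all arrays. That share is near the 44.2% called over all probe sets. The actin 3-prime to 5-prime change lay between -0.66 and -0.21.

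Same-numbered arrays of the 2 stages had correlations of their deviations of 0.14, -0.01 and 0.16, so the numbers were not taken as pairs. Not every array correlated best with its own number. With the replicate number as a block 10164 probe sets were called (4792 higher, 5372 lower), 5258 for the step difference, 1505 for the accession difference and 298 list members.

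Of the 153 named genes 140 were called in the C24 comparison, a count largely set by a rule that mostly takes called genes. In at least 1 alternative 7 of the 140 lost the call, and none changed direction while called. Named genes whose mean signal lay under the signal filter were not tested in the run that used it. The 16 genes named by the step difference kept their calls in every alternative run. The 16 named by the accession difference kept theirs in every alternative run that tested them. AT1G11590, of the latter, lay under the signal filter and was not tested in that run. Both sets were chosen as the largest called differences, which favours this result. What caused the shifts was not tested.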
